A study of Rattus norvegicus with 6 samples.

Results

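Transcripts that mark fat cells were followed across 6 arrays of rat kidney RNA. The set was chosen by gene symbol and held 9 genes: Adipoq, Cfd, Lep and Retn, which encode secreted proteins, Plin1, Cidec and Lipe, which serve the lipid droplet, Fabp4, a fatty acid carrier, and Ucp1, the uncoupling protein of brown fat. Of the 9 genes, 8 had a probe set under their symbol in the platform annotation, with 10 probe sets among 31042. Retn had none there and is named only. Of the 10 probe sets, 8 passed the filter on low signals described below, and they stand for 7 genes.

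The S group held 3 pools of kidney RNA from male Dahl salt-sensitive rats, the background strain. The congenic group held 3 pools from male rats of the S background in which a segment of chromosome 9 comes from the R strain. The rats shared a birth date, left their dams at 30 days of age, ate chow of 2% salt from then on and were 53 days old when the kidneys were taken, and each pool joined RNA of 2 of the 6 rats of a strain. No gene of the set lies on chromosome 9: the RefSeq table places them on chromosomes 1, 2, 4, 7, 11, 12 and 19. Both groups carry the S genome outside the segment, and each rests on a single strain, so that a difference between them is one between these strains in 3 pools each.

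Adipocytes store triglyceride in a large lipid droplet, release it as fatty acids on demand and secrete hormones. The kidney itself is not a fat depot, but it lies in perirenal fat, and fat continues into the renal sinus. In young rodents, part of the perirenal depot can have brown fat features, of which Ucp1 is the defining marker. Several of the 9 genes are not exclusive to adipocytes, since Fabp4 is also made by capillary endothelium and Lipe by steroid-producing cells. The labels give the tissue as kidney and name no fat, so the site of the cells that made these transcripts is not known here. In bulk RNA, fewer cells of a type and less RNA per cell cannot be told apart.

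The kidney identity of the arrays was clear from the tubule genes. Umod, the uromodulin of the thick ascending limb, measured 6748, 6774 and 6576 in S pools and 6589, 6875 and 7010 in congenic pools. Slc34a1, the phosphate cotransporter of the proximal tubule, measured 5960, 5515 and 5316 in S and 5568, 5400 and 5312 in congenic pools. Values are MAS5 signals, linear brightness values per probe set that can be compared between arrays but not between probe sets. Median signals were 42.9 to 46.0 per array. Actin's 3' over 5' ratio, a measure that increases as RNA degrades, was 6.15 to 9.42, with the highest value on S replicate 1. Congenic replicate 1 carried liver transcripts and congenic replicate 3 adrenal transcripts, with values given below.

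Fat marker signals were lower on average in congenic pools, but no gene of the set differed beyond the spread between arrays. Of the 8 genes measured, 7 had a lower mean on the log2(signal + 16) scale in congenic pools, with a median difference of -0.21. Of all 18625 probe sets tested, 51.3% were lower, with a median of -0.0036. The 8 genes include Lep, which was not tested. Several of them varied together over the same arrays, so they are not separate observations. By limma, adjusted over all tested probe sets, 0 of the 8 tested fat probe sets passed 0.05, and 0% of all probe sets passed. At an unadjusted p under 0.05 the count was also 0 of 8, where 6.61% of all tested probe sets passed. The groups overlapped for each of the 8, whereas 12.5% of all tested probe sets had no overlap.

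Adipoq, the gene of adiponectin, a hormone made almost only by adipocytes, measured 155, 188 and 190 in S and 111, 165 and 169 in congenic pools. Congenic replicates 2 and 3 lay between S replicate 1 and the other S arrays, and the lowest of the 6 arrays was congenic replicate 1. The means were 178 ± 19.9 in S and 149 ± 32.2 in congenic pools (SD, n = 3 each), a log2 difference of -0.25 (SE 0.143, 95% interval -0.57 to 0.068, limma adjusted p = 0.782).

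Cfd, the gene of complement factor D or adipsin, a serine protease secreted by fat, measured 217, 359 and 354 in S and 237, 333 and 309 in congenic pools. Here S replicate 1 was the lowest array and congenic replicate 1 the next. With 310 ± 80.7 in S and 293 ± 50.0 in congenic pools (SD, n = 3 each), the log2 difference was -0.058 (SE 0.178, 95% interval -0.45 to 0.34, limma adjusted p = 0.964). Its sign turned without congenic replicate 1 (0.080), without S replicate 2 (0.060) and without S replicate 3 (0.051).

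Lep, the gene of the satiety hormone leptin, was close to the bottom of the scale on every array. Its signals were 1.22, 2.08 and 3.43 in S and 2.67, 2.81 and 2.26 in congenic pools, a mean below that of all but 5.34% of the probe sets. It fell under the filter and was not tested. The single Lep probe set was thus near 0 on arrays on which the Adipoq probe set was well above the filter. Signals cannot be compared between probe sets, so whether leptin RNA was absent is not known.

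Of the lipid droplet genes, Plin1 encodes perilipin, which coats the droplet and controls access of lipases. Its brighter probe set measured 62.8, 117 and 95.4 in S and 51.5, 98.4 and 88.0 in congenic pools. The lowest value of each group lay on its replicate 1, and the other 4 arrays overlapped. The means were 91.6 ± 27.2 and 79.3 ± 24.6 (SD, n = 3 each), a log2 difference of -0.18 (SE 0.220, 95% interval -0.67 to 0.31, limma adjusted p = 0.891). Without congenic replicate 1 the difference was 0.052. The second Plin1 probe set lay under the filter, with signals from 6.28 to 14.2.

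Cidec, whose product enlarges lipid droplets by fusion, measured 582, 625 and 557 in S and 422, 559 and 578 in congenic pools. Unlike Adipoq, Cfd and Plin1, it was not low on S replicate 1, which reached 0.985 of the mean of the other S arrays, and 1 array, congenic replicate 1, stood below the other 5. The means were 588 ± 34.2 and 520 ± 85.4 (SD, n = 3 each), a log2 difference of -0.18 (SE 0.108, 95% interval -0.42 to 0.055, limma adjusted p = 0.782). Without congenic replicate 1 the Cidec difference was -0.045.

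Lipe, the gene of hormone-sensitive lipase, had 2 tested probe sets that pointed in opposite directions. The brighter measured 70.1, 85.3 and 50.1 in S and 63.3, 47.7 and 52.3 in congenic pools, a log2 difference of -0.25 (SE 0.161, limma adjusted p = 0.800). The dimmer measured 32.2, 24.3 and 31.8 in S and 28.8, 48.3 and 23.0 in congenic pools, a log2 difference of 0.092 (SE 0.187, limma adjusted p = 0.940). Congenic replicate 2 was the lowest array for one and the highest for the other. Counts over the genes take Lipe by its brighter probe set, and the mean over both probe sets was -0.078. Neither probe set was low on both replicate 1 arrays.

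Fabp4, the fatty acid binding protein abundant in adipocytes, measured 497, 728 and 792 in S and 402, 691 and 612 in congenic pools. Replicate 1 was again the lowest array of each group. The means were 672 ± 155 and 568 ± 150 (SD, n = 3 each), a log2 difference of -0.24 (SE 0.198, 95% interval -0.68 to 0.20, limma adjusted p = 0.833). Without congenic replicate 1 the Fabp4 difference was -0.019, and without S replicate 1 it was -0.44.

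Ucp1, which uncouples respiration from ATP synthesis to make heat, varied most among the set. It measured 81.9, 180 and 199 in S and 80.2, 66.4 and 157 in congenic pools, a 2.99-fold range. S replicate 1 and congenic replicates 1 and 2 were low, and the other 3 arrays were high, with no array between 81.9 and 157. With 154 ± 62.8 in S and 101 ± 48.8 in congenic pools (SD, n = 3 each), the log2 difference was -0.53 (SE 0.312, 95% interval -1.22 to 0.16, limma adjusted p = 0.782). The Ucp1 difference was -0.89 without S replicate 1 and -0.31 without congenic replicate 2.

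**Figure D1:**
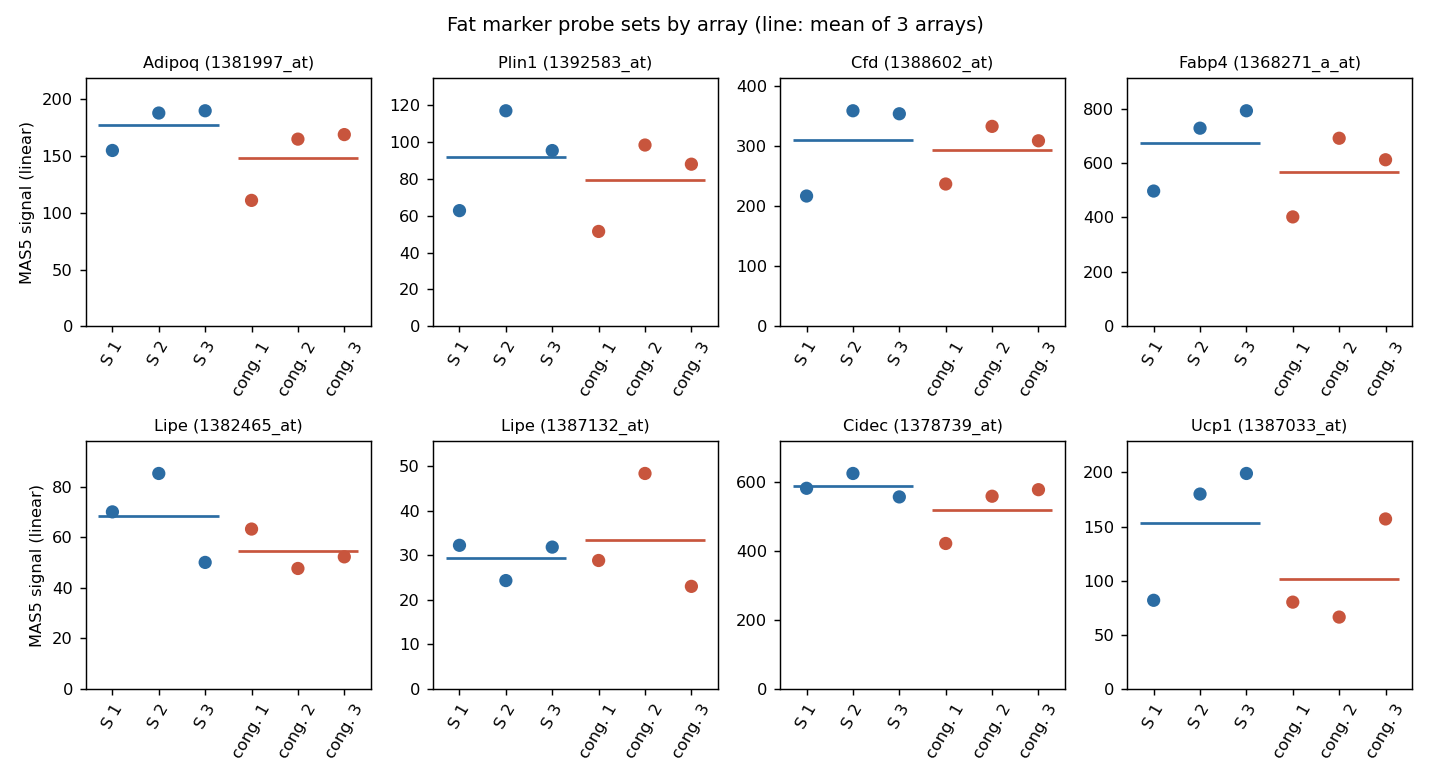
MAS5 signal (linear axis from 0) of the 8 tested fat marker probe sets on each array, S in blue and congenic in red, with points for arrays and lines for group means (n = 3). The groups overlap in each panel, and Adipoq, Plin1, Cfd and Fabp4 have their lowest 2 arrays at S 1 and congenic 1.

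**Figure D2:**
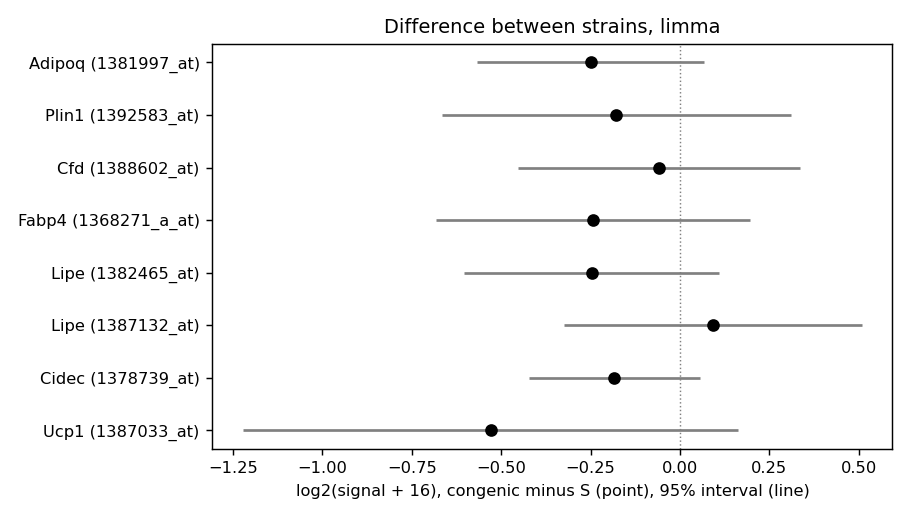
Difference in log2(signal + 16), congenic minus S, for the 8 tested probe sets, with points for the estimates and lines for 95% intervals from limma. Each interval includes 0, and that of Ucp1 is the widest, from -1.22 to 0.16.

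The arrays of each strain differed among themselves, with replicate 1 low in both for most of the tested genes. As a share of the S mean, S replicate 1 measured 87.1% for Adipoq, 73.9% for Fabp4, 70.0% for Cfd, 68.5% for Plin1 and 53.3% for Ucp1. Congenic replicate 1 measured 62.7% for Adipoq, 59.8% for Fabp4, 76.4% for Cfd, 56.2% for Plin1 and 52.2% for Ucp1. Cidec and Lipe were not low on S replicate 1, at 99.0% and 102%, and were at 71.7% and 92.4% on congenic replicate 1. Congenic replicates 2 and 3 lay between 91.1% and 107% for Adipoq, Fabp4, Cfd and Plin1, and at 95.2% and 98.3% for Cidec. Lipe was lower on these arrays, at 69.6% and 76.3%. On congenic replicate 2, which was the lowest array for both Ucp1 and Lipe, Ucp1 was at 43.2% and Fabp4 at 103%.

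Of the 7 tested genes, each by its brighter probe set, congenic replicate 1 was the lowest array for 4 and among the lowest 2 for 6. S replicate 1 was the lowest for 1 and among the lowest 2 for 4. These counts by array were not made over all tested probe sets, so they have no background to be read against. When each gene was centred on its mean over the 6 arrays, the mean of the 7 genes was -0.18, 0.33 and 0.22 for the S pools and -0.38, -0.049 and 0.071 for the congenic pools (log2). The pooled SD of these values within the groups was 0.252, and the group means differed by -0.24, congenic minus S. Adipoq followed the mean of the other 6 genes most closely, with a root mean square difference over the 6 arrays of 0.104 on the log2 scale. The same measure was 0.160 to 0.175 for Cfd, Plin1, Fabp4 and Cidec, 0.371 for Lipe and 0.442 for Ucp1.

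**Figure D3:**
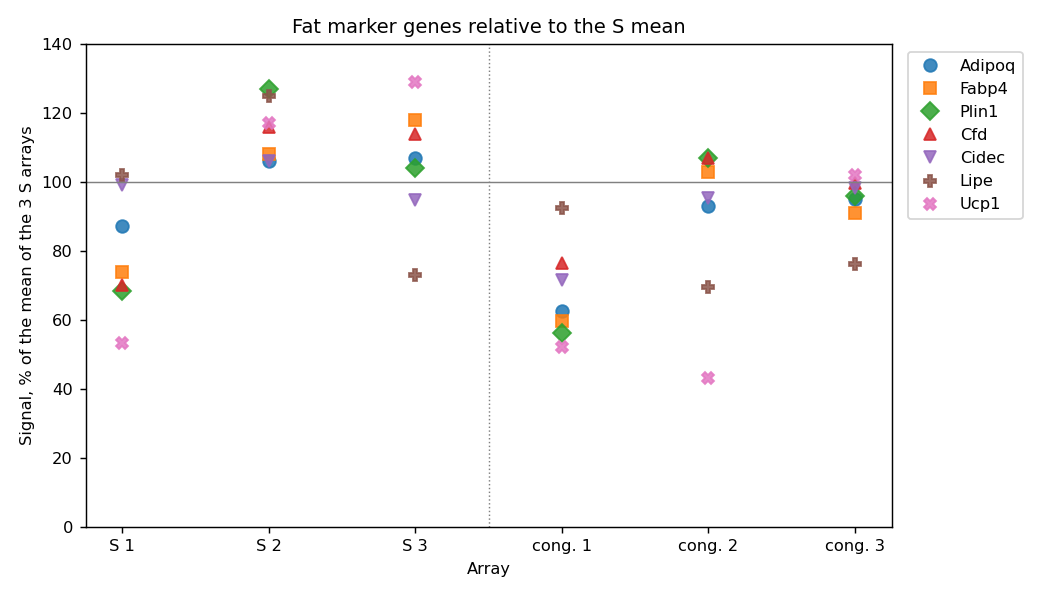
Signal of 7 fat marker genes on each array as a percentage of the mean of the 3 S arrays (linear axis from 0, one marker shape per gene). S 1 and congenic 1 hold low values for most genes, and Cidec and Lipe depart from this on S 1. On congenic 2, Ucp1 is low, at 43.2%, and so is Lipe, at 69.6%.

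Adipoq, Plin1 and Cfd were picked because they varied together, and Ucp1 because it differed from them on 1 array, congenic replicate 2. The picks were made after the values were seen, and Fabp4 and Cidec followed the other genes about as closely as Plin1 and Cfd. Some genes outside the set, named below, followed the fat mean more closely still. The sequences before the start sites of Adipoq, Plin1, Cfd and Ucp1 are shown for comparison, and no link to the signals was tested. They come from RefSeq's GRCr8 rat assembly, which matched 7 of the 9 genes (all but Fabp4 and Lipe), and end at the base before the outermost annotated start of the gene. The sequences run 5′ to 3′ on the gene's strand, and capitals mark a match on either strand to the TATA box TATAAA, to the CCAAT box, to the C/EBP-type motif TTNNGCAA, to AGGTCA, which nuclear receptors such as PPAR gamma bind in repeats, or to TGACG, a core of the cAMP response element. These motifs share no letters with each other in the stretches shown.
Adipoq, chr11:91240245-91240419, minus strand: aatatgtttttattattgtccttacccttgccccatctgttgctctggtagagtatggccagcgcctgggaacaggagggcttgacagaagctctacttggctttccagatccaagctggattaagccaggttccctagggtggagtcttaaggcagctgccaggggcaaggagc
Plin1, chr1:143086200-143086398, minus strand: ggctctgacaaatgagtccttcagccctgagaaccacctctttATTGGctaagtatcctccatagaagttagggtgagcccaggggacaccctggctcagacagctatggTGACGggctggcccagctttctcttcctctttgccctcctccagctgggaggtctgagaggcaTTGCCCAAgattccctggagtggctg
Cfd, chr7:10465497-10465746, minus strand: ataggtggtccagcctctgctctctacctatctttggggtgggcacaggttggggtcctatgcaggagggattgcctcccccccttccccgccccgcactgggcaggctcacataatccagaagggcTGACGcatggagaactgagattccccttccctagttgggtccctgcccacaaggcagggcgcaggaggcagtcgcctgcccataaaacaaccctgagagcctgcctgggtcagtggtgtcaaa
Ucp1, chr19:41721422-41721671, minus strand: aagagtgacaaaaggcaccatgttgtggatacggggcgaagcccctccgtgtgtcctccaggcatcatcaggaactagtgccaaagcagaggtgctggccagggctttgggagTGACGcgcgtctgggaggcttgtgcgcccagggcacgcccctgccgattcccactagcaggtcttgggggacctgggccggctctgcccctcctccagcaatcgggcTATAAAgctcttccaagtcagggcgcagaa

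The Adipoq stretch held none of these motifs. Plin1 held the CCAAT box, the C/EBP-type motif and the cAMP core, Cfd held the cAMP core, and Ucp1 held the TATA box and the cAMP core. In the full 250 bases before the table's start sites, 3 of the 7 matched genes had the CCAAT box, 3 the C/EBP-type motif and 3 the cAMP core, where 34%, 9.22% and 18.2% of 33469 promoters did. The TATA box was present in 1 of 7 and the nuclear receptor motif in 1 of 7, against 12.9% and 14.1% of the promoters. A match describes letters and not a bound site, and no binding was measured. Adipoq, Plin1 and Cfd shared no one of the 5 motifs in the stretches printed, since Adipoq held none.

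Among other genes of fat cell differentiation and lipid storage, 42 of 44 were tested, of which 30 had a lower and 12 a higher congenic mean (median log2 difference -0.031). None passed limma's adjusted threshold (0 of 42), and at an unadjusted p under 0.05 there were 3 lower and 1 higher. Over all tested probe sets, 6.61% had such a p and 51.3% were lower, and the counts of the lists that follow are to be read against the same shares. Most of these genes are also expressed by kidney cells. Lpl, the lipoprotein lipase that supplies fatty acids to fat and muscle, measured 766, 1150 and 1143 in S and 702, 862 and 988 in congenic pools, with replicate 1 the lowest array of each group. Its log2 difference was -0.25 (SE 0.156, limma adjusted p = 0.794).

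Pparg, the nuclear receptor that drives adipocyte differentiation, measured 43.0, 47.6 and 74.2 in S and 37.2, 40.7 and 41.1 in congenic pools. The groups did not overlap, but S replicate 3 stood above the other 5 arrays, and the log2 difference of -0.33 (SE 0.161) did not pass limma's test (adjusted p = 0.780). Cebpa, a partner of Pparg in differentiation, had a log2 difference of -0.020, and Slc2a4, the insulin-responsive glucose transporter, of 0.0061. The fatty acid synthase gene Fasn had -0.28, the triglyceride synthesis gene Dgat2 -0.20 and the acyl-CoA synthetase gene Acsl1 -0.16. The limma adjusted p of these 3 was 0.718 to 0.736, and replicate 1 was the lowest array of each group for Dgat2 and Acsl1 but not for Fasn. Pde3b, the phosphodiesterase through which insulin restrains lipolysis, had 0.32, and it too did not pass.

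Genes of brown and beige fat were tested for 11 of 18 symbols, of which 10 were lower and 1 higher, with a median log2 difference of -0.098 and 0 past limma's adjusted threshold. At an unadjusted p under 0.05 there was 1, lower, namely Ppargc1a. Ppargc1a, a coactivator of mitochondrial genes that is also abundant in kidney tubules, measured 588, 516 and 590 in S and 457, 474 and 502 in congenic pools. The groups did not overlap, and the log2 difference was -0.23 (SE 0.0733, limma adjusted p = 0.701). Its array order differed from that of Ucp1, since S replicate 1 was high for Ppargc1a and low for Ucp1.

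Cidea, a lipid droplet gene of brown fat, measured 163, 246 and 232 in S and 183, 176 and 236 in congenic pools. Like Ucp1, it was low on S replicate 1 and congenic replicates 1 and 2 and high on the other 3 arrays. Cox8b, a cytochrome oxidase subunit of brown fat and muscle, measured 26.2, 70.3 and 74.1 in S and 54.7, 37.0 and 48.1 in congenic pools, so that the order was the same for the S arrays and not for the congenic ones. Cidea was among the defining markers of the list, but its likeness to Ucp1 was seen only in the values by array. The log2 differences were -0.088 for Cidea, -0.15 for Cox8b, -0.20 for the carnitine transferase gene Cpt1b and -0.059 for the brown fat regulator Prdm16, and none passed limma's test. Dio2 and Elovl3, which are induced in stimulated brown fat, had signals of 0.634 to 5.66 and 1.39 to 8.09 and were not tested.

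Receptors and signal carriers of the fat hormones were tested for 6 of 9 genes, all 6 higher in congenic pools, with a median log2 difference of 0.097 and 0 past limma's adjusted threshold. Adiponectin receptor genes Adipor1 and Adipor2 had log2 differences of 0.013 and 0.22, and the groups did not overlap for Adipor2, at 91.9, 104 and 101 in S and 111, 123 and 119 in congenic pools (limma adjusted p = 0.746). It was the 1 gene of this list with an unadjusted p under 0.05. The insulin pathway genes Insr and Irs2 had 0.12 and 0.28, and Irs2 was high on 1 array, congenic replicate 3, at 501 against 173 to 270 elsewhere. The leptin receptor gene Lepr, at 18.4 to 28.7, was under the filter. Genes of fat stroma and capsule (8 of 13 tested, 2 lower) had a median of 0.041 and 0 calls, with Dpt at -0.11, Dpp4 at 0.11 and Ly6al at 0.12.

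The genes most like the fat profile were sought among 1859 named genes outside the set that ranged by at least 0.5 on the log2 scale, by the root mean square difference from the mean of the 7 fat genes over the 6 arrays. The nearest 8 were Slc4a7, a bicarbonate cotransporter (0.036), Lpl (0.054), Orai2, a calcium channel subunit (0.058), Snrk (0.062), Arxes1 (0.062), Col9a2 (0.073), Lpin1 (0.089) and Pfkfb3 (0.090). Lpl and Lpin1, a phosphatidate phosphatase of triglyceride synthesis, belong to the list of fat cell differentiation. The first of them, Slc4a7, measured 343, 521 and 473 in S and 318, 399 and 414 in congenic pools, with replicate 1 lowest in each group. The likeness is a description over 6 arrays. Each of these 8 genes, the nearest of 1859, lay closer to the fat mean than any fat gene to the mean of the others (0.104 to 0.442). The array pattern was thus not particular to the fat set.

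Liver and adrenal markers each stood out on 1 array. The liver list of 9 genes summed to 434 to 516 on the S arrays and to 11000, 448 and 479 on congenic replicates 1, 2 and 3. Albumin (Alb) measured 6683 and Serpina1 872 on congenic replicate 1, against 19.3 to 56.7 and 3.51 to 14.6 on the other 5 arrays. That array was also the lowest for Adipoq, Plin1, Fabp4 and Cidec, and the part of the liver transcripts in this was not tested. Without it, the congenic mean was the lower for 5 of the 8 fat genes, and the median log2 difference was -0.032.

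The adrenal list of 10 genes summed to 167 to 187 on the S arrays and to 176, 179 and 5806 on the congenic arrays, with Cyp11a1 at 1598 and Hsd3b1 at 2080 on congenic replicate 3. On that array Adipoq was at 95.1% and Fabp4 at 91.1% of the S mean. Without congenic replicate 3 the median of the fat genes was -0.26. With both of these congenic arrays left out, congenic replicate 2 alone against the S arrays gave 4 of 8 fat genes lower and a median of -0.011, with Fabp4 at 0.066, Plin1 at 0.12, Cfd at 0.13 and Ucp1 at -0.96. No gene of the set passed limma's test in that comparison, in which the spread comes from the S arrays.

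Skeletal muscle markers were at or near the bottom of the scale, with Acta1 at 1.68 to 13.2 and Ckm at 1.99 to 7.40, and all 8 summed to 66.1 to 98.3 in S and 93.9 to 109 in congenic pools. The urothelial list, with 6 of 6 tested genes lower, summed to 652 to 687 in S and 496 to 585 in congenic pools, and its array order differed from that of fat in that S replicate 1 was the highest. Blood genes summed to 7524 to 8506 in S and 8147 to 8911 in congenic pools, and S replicate 1 was the lowest array, as it was for Cfd. Macrophage genes, 6 of 7 tested ones higher, summed to 3377 to 3524 in S and 3582 to 3827 in congenic pools. Lymphocyte genes summed to 291 to 326 and 274 to 351. The 10 kidney genes measured summed to 32701 to 34444 in S and 33870 to 33984 in congenic pools, and the fat set to 1666 to 2283 and 1369 to 1967. None of the genes of these lists passed limma's adjusted threshold, and the part of the other cell types in the fat signals was not tested.

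The leading genes of these lists, by the smallest p, had log2 differences of 0.51 for Fga, 1.38 for Cps1 and 1.79 for Ahsg (liver), 1.79 for Star (adrenal gland), 0.52 for Tnni2 (muscle) and -0.67, -0.29 and -0.29 for Sprr1a, Upk1b and Upk1a (urothelium). Those of blood were 0.090 for Hbb, -0.32 for Ahsp and 0.051 for Slc4a1, and of lymphocytes 0.094 for Cd3g and -0.0089 for Ptprc. Macrophage genes had 0.41 for C1qb, 0.13 for C1qa and -0.13 for Cd68, and kidney genes 0.23 for Aqp2, 0.13 for Slc12a1 and -0.27 for Nphs1. The liver and adrenal differences rested mainly on 1 array each. On congenic replicates 1, 2 and 3, Ahsg measured 557, 16.1 and 15.5, and Star 13.0, 11.9 and 1085.

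**Figure D4:**
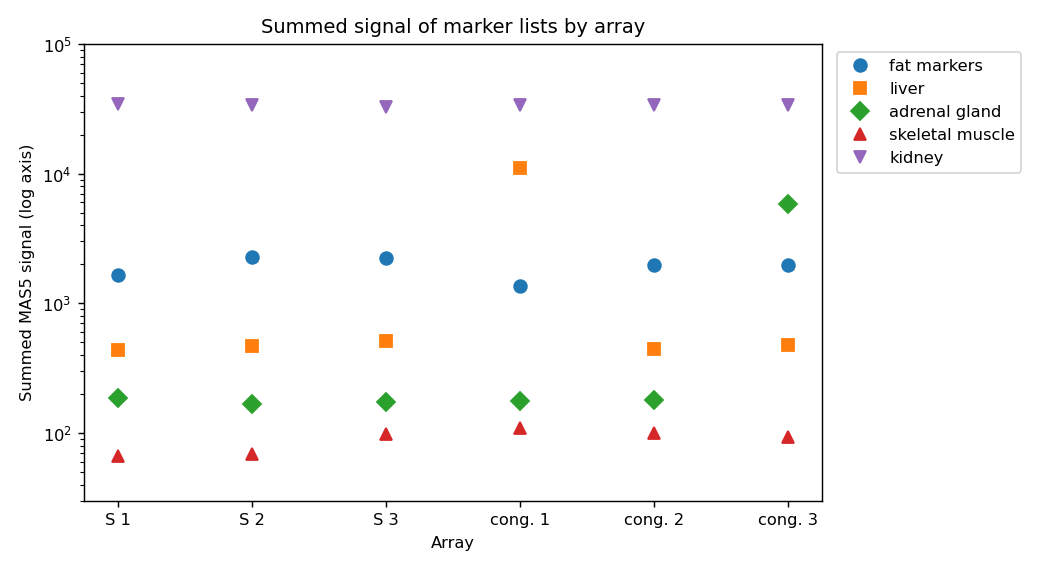
Summed MAS5 signal (log axis) of the fat set and of liver, adrenal, skeletal muscle and kidney markers on each array. Liver stands out on congenic 1, at 11000, adrenal gland on congenic 3, at 5806, and the fat sum is lowest on congenic 1, at 1369, and next on S 1, at 1666.

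With each array left out in turn, the size of the strain difference depended on the array left out. The median moved most without congenic replicate 1, and about as much without S replicate 2 as without S replicate 1. The median of the 8 genes ran from -0.31 without S replicate 1, with 8 of 8 lower, to -0.032 without congenic replicate 1, with 5 of 8 lower. Without S replicate 2 and without S replicate 3 the median was -0.12 and -0.17, with 6 of 8 lower each time. Adipoq, Fabp4, Cidec, Ucp1 and the brighter Lipe probe set stayed below 0 in all 6 cases, from -0.34 to -0.076 for Adipoq and -0.27 to -0.045 for Cidec. No gene of the set passed limma's adjusted threshold in any of the 6. At an unadjusted p under 0.05 there were 3 genes without S replicate 1, 3 without congenic replicate 3, 1 without S replicate 3 and 0 in the other cases. In the first 3 of these fits, 5.29%, 5.86% and 9.33% of all tested probe sets had such a p.

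**Figure D5:**
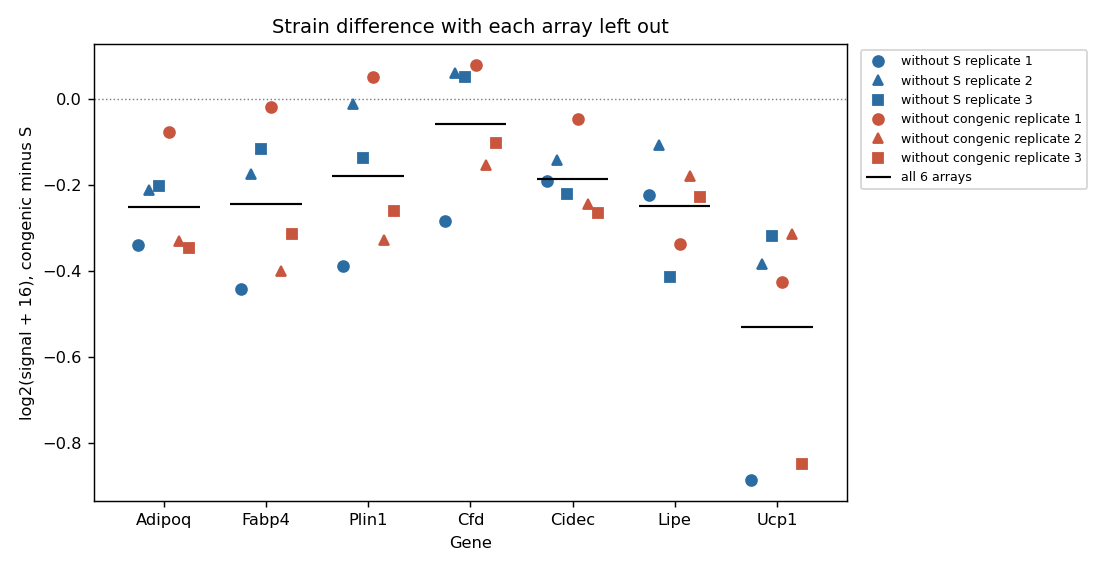
Log2 difference, congenic minus S, of 7 fat genes with each array left out (points; blue for an S array and red for a congenic array left out) and with all 6 arrays (black lines). Values lie nearest to 0 or above it without congenic replicate 1 for Adipoq, Fabp4, Plin1, Cfd and Cidec, and the lowest value of all is -0.89, for Ucp1 without S replicate 1.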

How the data were processed

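Kidney RNA of 2 rats per pool was hybridised to Affymetrix Rat 230 2.0 arrays, 3 per strain. The authors deposited intensities, 1 linear MAS5 signal per probe set, per the submitters' processing notes; version, scaling target and detection calls are not given in the sources used here. Symbols came from the platform annotation, updated by gene ID to RefSeq GRCr8. After removal of 57 control probe sets and of those with a mean log2(signal + 16) below the 40th percentile, a signal of about 25.0, limma 3.58.1 (R 4.3.3, intensity trend, 2-sided, Benjamini-Hochberg at 0.05) was run on 18625. The pseudocount understates changes of dim probe sets. On simulated data the fit recovered 40.0% of 200 probe sets changed 1.5-fold, 87.0% changed 2-fold and 85.5% changed 3-fold. False calls numbered 2, 6 and 7. Noise was drawn for each probe set separately, so deviations that probe sets share on an array were not simulated. Changes as small as those of the fat genes were not simulated. With 3 arrays a group the smallest exact permutation p is 0.1, and no such test was run. The few arrays limit precision (median SE 0.106).

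The brightest probe set stood for a gene. From each list the 3 genes with the smallest p were named, with the lists' defining markers. A few others, such as Cox8b, Dio2, Elovl3 and Pde3b, were named besides. Members and lists were chosen with earlier results of these data known. Alternatives were pseudocounts 1 and 64, other filters, quantile normalization, median centring, no trend, a mean over probe sets, arrays left out and a replicate block.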

Additional observations from a re-analysis of the deposited data

How the results depend on the processing

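Of 128 values of the 8 fat genes under the alternatives, 8 turned direction, among them Lep, which was not tested, at -0.013 without S replicate 1. Of the 105 with a test 0 passed limma's adjusted threshold. The median of the 8 genes ran from -0.31 to -0.032 with single arrays left out and from -0.23 to -0.15 under the other scalings, pseudocounts, filters and probe set rules; the filter and the trend do not enter it. Lower genes numbered 5 to 8 of 8 with single arrays left out and 4 with congenic replicate 2 alone, where Cfd turned to 0.13, Fabp4 to 0.066 and Plin1 to 0.12; the cause was not tested. With single arrays left out, Cfd ran from -0.28 to 0.080, with 0.060 and 0.051 among its positive values, and Plin1 from -0.39 to 0.052. Over all probe sets 0 to 3 were called with single arrays left out, 3 without S replicate 3 and 1 without congenic replicate 2. Lep was at 0.20 with pseudocount 1 and at 0.028 with 16. With the replicate number as a block, 0 probe sets were called, and Adipoq, Fabp4 and Ucp1 (3 of the fat genes) had an unadjusted p under 0.05, where the fit without the block had 0, with adjusted p of 0.668, 0.581 and 0.651; over all tested probe sets the share with such a p was 7.06% with the block and 6.61% without. The labels do not say whether the numbers pair the pools, although rats of both strains shared cages. Same-numbered deviations correlated at 0.043, 0.022 and 0.017 over all tested probe sets, and 4 of 6 arrays correlated best with their own number. Adipoq, Plin1, Fabp4 and Ucp1 were lower in congenic pools in 3 of 3 same-numbered pairs, Cfd, Lipe and Cidec in 2 and Lep in 1. The same count was not made over all tested probe sets, so these counts have no background to be read against. Lep and the dimmer Plin1 probe set have signals under the pseudocount of 16, which sets the size of their differences.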
